A study of Mus musculus with 12 samples.

Results

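Metallothioneins and the transporters that move zinc across membranes were examined in mouse liver through 5 genes, chosen by name: the metallothioneins Mt1 and Mt2, the importer Slc39a14 and the exporters Slc30a1 and Slc30a10. All 5 were among the 13267 genes of the table, and all 5 passed the filter on low values (at least 10 in at least 6 libraries), as did 12720 genes in all. The livers came from 12 C57BL/6 mice made obese with a high-fat diet until the liver was fat-laden (steatosis), a state shared by both groups. In the control group 6 mice carried a scaffold pellet under the skin for 6 weeks, and in the treated group 6 mice carried 4-hydroxyphenylacetic acid (4-HPAA), a phenolic acid formed by gut bacteria, by the same route for 6 weeks. The study asked how the liver transcriptome differs with the compound, in 1 comparison of 6 against 6. Neither sex nor age is given. Samples within a group are only numbered, so each was taken as a separate mouse, and a p-value here reflects how far these 12 samples scatter, which may be partly technical.

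Metallothioneins are small cysteine-rich proteins that bind zinc and copper in the cytosol and buffer the supply of free metal. When zinc rises, it activates the transcription factor MTF1, which binds metal response elements in the promoters of Mt1, Mt2 and Slc30a1. Glucocorticoids and inflammatory cytokines also raise metallothionein transcription in hepatocytes. Transporters of the SLC39 (ZIP) family bring zinc into the cytosol, and those of the SLC30 (ZnT) family take it out. Slc39a14 (ZIP14) also takes up manganese and iron, is induced in liver by interleukin 6, and in the handling of manganese is the counterpart of Slc30a10, which exports that metal.

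Values are normalised read counts, that is, reads scaled per library by the authors and rounded. They summed to 22869813 to 25255447 per library. Undoing the scaling gave an estimated depth of 24342992 to 26924668 reads in control and of 22389551 to 25919336 in 4-HPAA libraries. The hepatocyte markers chosen for this work, 7 of 7 in the table, summed to 2244165 to 2729033 in control and 1902015 to 2487119 in 4-HPAA libraries. Most of this sum is Alb (log2 difference −0.38), while 4 of the 7 markers had positive differences, among them Cps1 (0.36) and Ass1 (0.21), and the list median was 0.17. Of 6 adipocyte markers, Cfd, Fabp4 and Cidec were in the table and summed to 630 to 3218 and 283 to 916. Adipoq, Plin1 and Lep were not among the named genes of the table. Which cells the other 3 transcripts came from was not tested. Stellate cell markers, 7 of 7, summed to 5977 to 8964 and 3631 to 7233. At an unadjusted p under 0.05 (limma), 3 of these 3 adipocyte and 4 of these 7 stellate markers were lower with 4-HPAA, where 7.56% of all genes were. Kupffer cell and macrophage markers, 8 of 8, summed to 2061 to 8899 and 2981 to 5416. The part of these cells in the results was not tested, and in whole liver fewer cells of a type cannot be told apart from less RNA per cell. 4-HPAA replicate 3 stood apart from all other libraries on the second principal component (56.45 against −17.03 to 7.52, 20.6% of the variance), so differences are also given without it.

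In the GRCm38 build, Mt2 lies at chr8:94172664-94173568 and Mt1 at chr8:94179082-94180327, both on the plus strand and 5513 bases apart. Their promoters are shown because the pair moved together from mouse to mouse. That of Slc30a1 is shown because it is named above with them as bound by MTF1. Each sequence is the 250 bases before the RefSeq transcription start (GRCm38.p6, plus strand, 5′ to 3′), and capitals mark matches to the core of the metal response element, searched as TGCACNC or TGCGCNC on both strands, overlapping matches counted.
Mt1 promoter, chr8:94178839-94179088: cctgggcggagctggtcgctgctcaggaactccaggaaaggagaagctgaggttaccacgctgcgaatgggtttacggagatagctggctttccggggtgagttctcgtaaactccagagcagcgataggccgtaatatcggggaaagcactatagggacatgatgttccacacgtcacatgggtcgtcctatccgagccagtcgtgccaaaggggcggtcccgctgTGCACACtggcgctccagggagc
Mt2 promoter, chr8:94172368-94172617: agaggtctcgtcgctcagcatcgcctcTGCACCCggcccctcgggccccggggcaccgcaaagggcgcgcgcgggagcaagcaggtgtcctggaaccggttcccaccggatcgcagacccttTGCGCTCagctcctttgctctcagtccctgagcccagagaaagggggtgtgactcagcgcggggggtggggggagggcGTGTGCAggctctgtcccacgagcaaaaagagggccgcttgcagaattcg
Slc30a1 promoter, chr1:191906531-191906780: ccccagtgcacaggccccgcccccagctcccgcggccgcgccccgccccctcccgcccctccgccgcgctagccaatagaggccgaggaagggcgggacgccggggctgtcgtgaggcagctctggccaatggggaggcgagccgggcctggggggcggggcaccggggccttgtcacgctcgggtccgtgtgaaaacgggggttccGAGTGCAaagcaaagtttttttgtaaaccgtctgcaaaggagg
Counting also the first 50 bases after the start, the Mt2 window held 4 matches, the Mt1 window 3, the Slc30a10 window 3 and the Slc30a1 window 2. Among the 32841 promoter windows of 300 bases in the table, 25.7% held at least 1 match, 7.12% at least 2, 1.97% at least 3 and 0.518% at least 4. In Mt1 the match before the start lay at positions −23 to −17 and the other two (TGCACTC and TGCGCTC) at 3 to 9 and 21 to 27 after it. The 3 matches of Slc30a10, whose sequence is not printed, all lay before the start, and 2 of them overlapped on opposite strands at −233 to −226. Before the start Mt2 also held 3, and Mt1 and Slc30a1 held 1 each. The core of the antioxidant response element (TGACNNNGC), bound by NRF2, matched once in Mt2 (TGACTCAGC, −79 to −71) and once in Slc30a1, against 12.4% of windows with at least 1. A STAT site written as TTCNNNGAA was in none of the 4 windows and in 8.3% of all windows. Positions and counts hold for the RefSeq starts, which differ from the gene starts given above. The Mt2 sequence ends at 94172617, before the gene start at 94172664, and the Mt1 sequence at 94179088, after the gene start at 94179082. Where transcription starts in these livers was not tested. A match is a string of letters and was not tested for binding.

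No member passed the test of 4-HPAA against control, and all 5 had positive log2 differences. With limma on log2(value + 1), where 0 of 12720 genes (0.0%) had a Benjamini-Hochberg adjusted p under 0.05, the smallest adjusted p over all genes was 0.0809. By exact permutation adjusted over all genes the count was also 0. At an unadjusted p under 0.05, 1886 genes (14.8%) passed, 924 of them (7.26%) higher in 4-HPAA, and 1 of the 5 members, Slc30a10, was among these. Without 4-HPAA replicate 3 the count was 4 of 5, all but Mt1, where 10.6% of all genes were higher and 9.06% lower at that level. That mouse held the lowest value of its group in Mt1, Mt2, Slc39a14 and Slc30a1, so leaving it out raises their differences. With each library left out in turn, Slc39a14 and Slc30a1 were under 0.05 in only 1 of 12 fits (limma, unadjusted), this one. Mt2 was so in 3 of 12, Mt1 in 1 and Slc30a10 in 11. A positive difference was found for 49.8% of all genes. The median over the members was 0.40 against −0.00092 over all genes tested. The members were chosen with earlier results of these data known, so these comparisons with all genes are not a test of the set. Mt1 and Mt2 also varied together (r = 0.96 within groups), so the signs of the members are not independent. No member had groups that did not overlap, a property of 0.66% of genes.

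**Figure D1:**
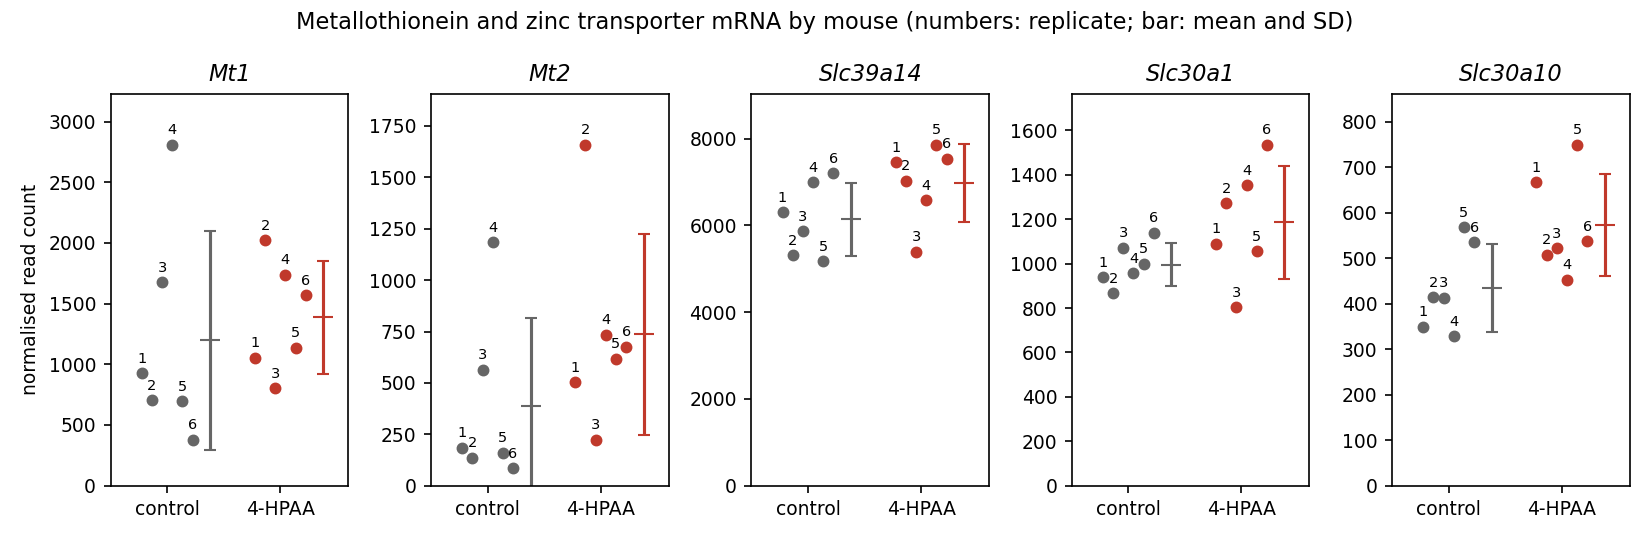
Normalised read counts (vertical axes, each from 0) of the 5 genes in each mouse, with controls in grey and 4-HPAA in red, the replicate number beside each point, and the mean and SD at the right of each group (the lower arm of the Mt2 control bar runs below 0 and is cut at the axis). The groups overlap for every gene, and control replicate 4 (Mt1 2810, Mt2 1184) and 4-HPAA replicate 2 (Mt1 2022, Mt2 1659) hold the highest metallothionein values of their groups.

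Mt2 had the largest difference of the 5 genes and the widest spread. Its normalised read count ran from 85 over a median of 172.5 to 1184 in controls, and from 224 over 647 to 1659 with 4-HPAA. Control replicates 3 and 4 stood high at 565 and 1184, while the other 4 controls lay between 85 and 184, below every 4-HPAA mouse. The group means were 386 ± 427 and 736 ± 487 (SD, n = 6 each). The log2 difference was 1.32 ± 0.64 (SE), a 2.50-fold higher level with a 95% interval from 0.95-fold to 6.54-fold (limma, unadjusted p = 0.0603, adjusted p = 0.359), and 5 of 6 treated mice exceeded the control mean. It was the 42nd largest positive difference among the 12720 genes tested. The difference without 4-HPAA replicate 3 was 1.61 (unadjusted p = 0.0381), and with any 1 library left out it lay between 1.01 and 1.77 (limma, adjusted p from 0.188 to 0.554 over all alternatives).

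Mt1, the neighbouring gene, differed less. Its count ran from 379 over a median of 817 to 2810 in controls and from 802 over 1352.5 to 2022 with 4-HPAA. The highest value of all 12 mice belonged to control replicate 4, and the 4-HPAA values lay inside the control range. The means were 1199 ± 902 and 1387 ± 464 (SD, n = 6 each). On the log2 scale they differed by 0.45 ± 0.42 (SE) with a 95% interval from −0.45 to 1.35 (limma, unadjusted p = 0.299, adjusted p = 0.655). Leaving out control replicate 4 moved the difference to 0.76 (unadjusted p = 0.0445) and leaving out control replicate 6, the lowest mouse, to 0.18 (unadjusted p = 0.63), while without 4-HPAA replicate 3 it was 0.59. These 2 control mice thus move the value by more than 1.5 times.

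Mice of the same group varied far more in the metallothioneins than in the transporters. The residual SD on the log2 scale was 1.20 for Mt2 and 0.81 for Mt1, larger than in 99.5% and 97.9% of the genes tested, whose median was 0.23. Between the lowest and the highest control mouse the count of Mt2 differed 13.9-fold and that of Mt1 7.41-fold. For Slc39a14 the same range was 1.39-fold, for Slc30a1 1.32-fold and for Slc30a10 1.73-fold. Residual SDs of the transporters were 0.20 (Slc39a14), 0.25 (Slc30a1) and 0.29 (Slc30a10), near that of a typical gene.

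The 2 metallothioneins varied together. After the group means were removed, Mt1 and Mt2 correlated across the 12 mice with Pearson's r = 0.96 and Spearman's rho = 0.97 (permutation test within groups, two-sided, p = 1e-05 each, the smallest that the resamples allow, adjusted p = 0.0001 over 10 pairs of members). Without the 2 mice farthest from the median of Mt1, r was 0.94, and it was 0.98 in controls and 0.92 in 4-HPAA mice. The longest run of bases shared by their annotated transcripts was 20, and none of the 50-base strings of either gene occurred in transcripts of another gene. Of the other 9 pairs, none passed after adjustment. The next in size was Mt1 with Slc30a10, at r = −0.65 and rho = −0.64 (permutation test, p = 0.0365 and 0.0422, adjusted p = 0.183 and 0.211), and r was −0.43 without the 2 farthest mice.

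The Mt1 to Mt2 ratio was lower on average with 4-HPAA than in controls. The ratio of the Mt1 to the Mt2 count was 5.04, 5.15, 2.97, 2.37, 4.32 and 4.46 in control replicates 1 to 6, and 2.10, 1.22, 3.58, 2.37, 1.84 and 2.32 in 4-HPAA replicates 1 to 6. All 6 4-HPAA mice lay below the control mean of 4.05 ± 1.13 (SD, n = 6), and 5 of them below the lowest control, by a small margin in replicates 4 and 6. The 4-HPAA mean was 2.24 ± 0.78 (SD, n = 6). On the log2 scale the ratio differed by −0.87 ± 0.28 (SE), with an exact permutation p = 0.013 (two-sided). This p was not adjusted for the other tests of the members, and the ratio is built from 2 of them. With same-numbered mice taken as 6 pairs, which the labels do not state, an exact sign-flip test gave p = 0.0938. The ratio differed by −1.02 without 4-HPAA replicate 3 (exact permutation p = 0.00433), and with any 1 library left out it stayed between −1.02 and −0.71 (exact p from 0.00433 to 0.0303). Because the ratio is taken within a library, the scaling of the libraries does not enter it.

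The ratio was also set beside the amount of metallothionein mRNA. In controls the 2 mice with the highest sum of both counts, replicates 3 and 4 at 2243 and 3994, had the 2 lowest ratios, while replicate 6, with the lowest sum (464), had a middle ratio of 4.46. Among 4-HPAA mice, replicate 3 had the lowest sum (1026) and the highest ratio, and replicate 2 the highest sum (3681) and the lowest ratio. The 4 treated mice between them, replicates 1, 5, 6 and 4 with sums of 1557, 1754, 2245 and 2474, showed no such order, at ratios of 2.10, 1.84, 2.32 and 2.37. Mice of like sums in the 2 groups were control replicate 3 and 4-HPAA replicate 6 (2243 and 2245, ratios 2.97 and 2.32), control replicate 1 and 4-HPAA replicate 3 (1112 and 1026, ratios 5.04 and 3.58), and control replicate 4 and 4-HPAA replicate 2 (3994 and 3681, ratios 2.37 and 1.22). The part of the level in the difference of the ratio was not tested. Mt2 overlaps the antisense gene Gm45774. The library kit keeps strand, but no source says if the read counting did, so reads of the overlapping genes may be mixed. The Mt1 row carries the ID of a single-exon transcript of 1085 bases, 1 of 3 annotated for the gene, and no source says if the value covers the others, which bears on the Mt1 level and on the ratio.

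**Figure D2:**
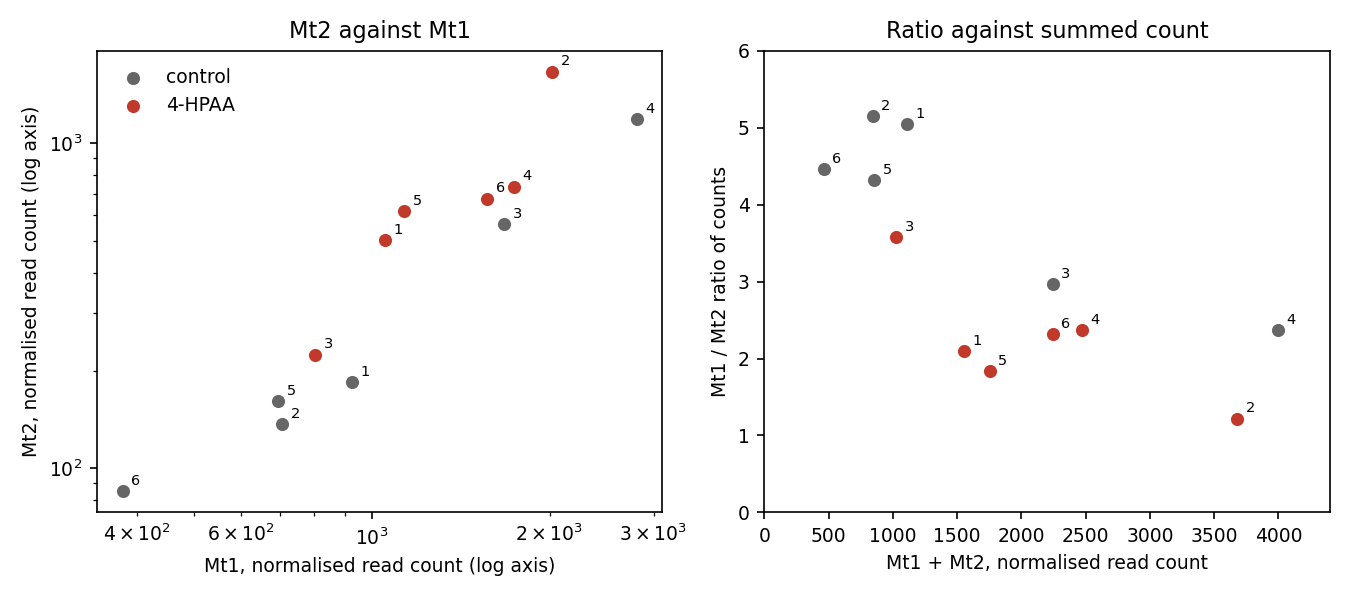
Left, Mt2 against Mt1 in normalised read counts on log axes. Right, the Mt1 to Mt2 ratio against the sum of both counts. Points are mice with their replicate number, controls in grey and 4-HPAA in red. Both counts are high or low in the same mice (r = 0.96 within groups), and 4 controls have ratios of 4.32 to 5.15 where the 4-HPAA mice reach 3.58 at most.

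Slc30a10, the manganese exporter, was the member with the smallest p. At chr1:185454848-185468762 on the plus strand, it was counted at 329 over a median of 413.5 to 568 in controls and at 453 over 530 to 750 with 4-HPAA. Control replicates 1 to 4 lay below every 4-HPAA mouse, replicates 5 and 6 lay among them, and 4-HPAA replicates 1 and 5 were above all controls. The means were 435 ± 97.2 and 573 ± 112 (SD, n = 6 each). The log2 difference was 0.40 ± 0.15 (SE), or 1.32-fold with a 95% interval from 1.05-fold to 1.66-fold (limma, unadjusted p = 0.0194, adjusted p = 0.249), and 6 of 6 treated mice exceeded the control mean. By exact permutation of this gene alone p was 0.0455 (two-sided). The difference was 0.43 without 4-HPAA replicate 3 and 0.32 to 0.49 with any 1 library left out. Its antisense neighbour Gm2061 had counts of 11 to 31 in controls and 25 to 61 with 4-HPAA.

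Slc39a14, the importer of zinc, iron and manganese at chr14:70303469-70351425 on the minus strand, was the most highly counted of the 5 genes. It ran from 5170 over a median of 6080.5 to 7200 in controls and from 5390 over 7240.5 to 7862 with 4-HPAA. Only 4-HPAA replicate 3, at 5390, lay below the control mean, and replicates 1, 5 and 6 lay above every control. The means were 6139 ± 848 and 6975 ± 895 (SD, n = 6 each). On the log2 scale this was 0.18 ± 0.11 (SE) with a 95% interval from −0.05 to 0.42 (limma, unadjusted p = 0.113, adjusted p = 0.451). Without 4-HPAA replicate 3 it was 0.26 (unadjusted p = 0.0161), in a fit where 10.6% of all genes were higher at that level. The row carries the ID of a retained-intron transcript, 1 of 13 annotated for the gene, and no source says if its value covers the whole gene.

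Slc30a1, the zinc exporter of the cell surface at chr1:191906767-191913247 on the plus strand, was counted at 866 over a median of 978.5 to 1140 in controls and at 805 over 1180.5 to 1536 with 4-HPAA. Replicates 2, 4 and 6 of the 4-HPAA group were above all controls and replicate 3 was below them all. The means were 995.5 ± 98.2 and 1185.5 ± 257 (SD, n = 6 each), which is 0.23 ± 0.13 (SE) on the log2 scale with a 95% interval from −0.06 to 0.51 (limma, unadjusted p = 0.107, adjusted p = 0.441). Without 4-HPAA replicate 3 it was 0.33 (unadjusted p = 0.00523), and without 4-HPAA replicate 6 it was 0.15 (unadjusted p = 0.255). Its promoter, shown above, held 1 match to the metal response core before the start, at −43 to −37. The antisense gene 1700034H15Rik, which overlaps it, had counts of 7 to 17 over all mice.

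**Figure D3:**
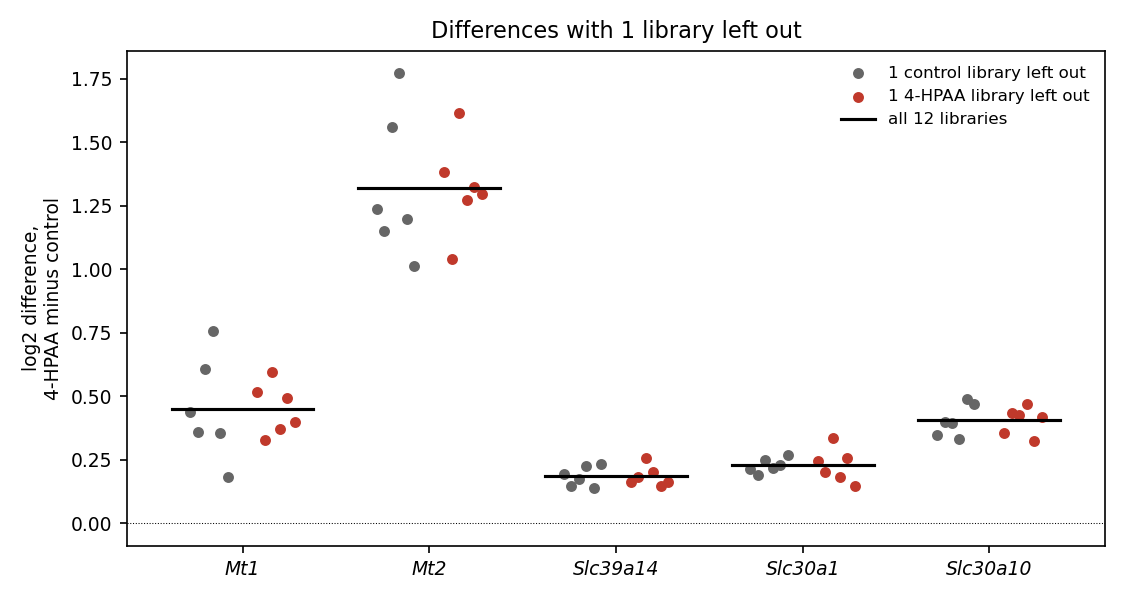
Log2 difference of each gene (4-HPAA minus control, vertical axis) with all 12 libraries (black line) and with 1 control (grey) or 1 4-HPAA library (red) left out. All values stay above 0, Mt1 ranges from 0.18 to 0.76 and Slc30a10 from 0.32 to 0.49.

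Levels were set side by side per kilobase of annotated exon. In controls Mt1 stood at 963 ± 724, Mt2 at 656 ± 727, Slc39a14 at 582 ± 80.4, Slc30a1 at 190 ± 18.7 and Slc30a10 at 74.5 ± 16.7 counts per kb (SD, n = 6). With 4-HPAA the levels were 1113 ± 372, 1251 ± 828, 661 ± 84.8, 226 ± 48.9 and 98.2 ± 19.2 counts per kb in the same order of genes. The SDs of Mt1, Mt2 and Slc39a14 overlapped, so their order is not settled by these levels. Mt1 was above Slc39a14 in 11 of 12 mice, and above Mt2 in 6 of 6 controls and in 3 of 6 4-HPAA mice. The annotated exons of Mt1 cover its whole span of 1.246 kb, while those of Mt2 cover 0.588 of 0.905 kb. A longer length lowers a level per kb, so the order and rank of Mt1 depend on the lengths used. Slc30a1 was below Slc39a14 and above Slc30a10 in all 12 mice. By the mean over all mice, Mt1 ranked above 92.2% of named genes, Slc39a14 above 88.5% and Slc30a10 above 54.1%. Per kilobase of the listed transcript Slc39a14 stood at 1200 ± 166 in controls, above Mt1 in 4 of 6 of them.

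Among the other zinc transporters, differences went both ways and none passed the adjusted test. Of the 14 SLC39 importers, 13 were tested, 7 with positive and 6 with negative log2 differences and a median of 0.05. At an unadjusted p under 0.05, 2 were higher and 1 lower, where 7.26% of all genes were higher and 7.56% lower. The 2 higher ones were Slc39a1 and Slc39a11. Without 4-HPAA replicate 3 the count of higher importers was also 2, Slc39a1 and Slc39a14, where 10.6% of all genes were higher. Slc39a1, an importer of the plasma membrane, differed by 0.20 ± 0.08 (SE), and Slc39a11 by 0.20 ± 0.09. Slc39a5, an importer of the basolateral membrane, differed by −0.79 ± 0.36, on means of 72.0 in controls and 40.0 with 4-HPAA. Slc39a7, which releases zinc from the endoplasmic reticulum and stood at 788 ± 39.8 counts per kb of annotated exon in controls (SD, n = 6), differed by 0.20 ± 0.11 (unadjusted p = 0.097).

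Of the 10 SLC30 exporters, 7 were tested, 6 with positive differences and a median of 0.15, and Slc30a10 alone had an unadjusted p under 0.05. Without 4-HPAA replicate 3 this count was 4, all higher: Slc30a1, Slc30a10, Slc30a5 (0.40) and Slc30a7 (0.18), where 10.6% of all genes were. Slc30a5 and Slc30a7 load zinc into the secretory pathway, and over all mice they differed by 0.29 ± 0.14 and 0.15 ± 0.08 (SE, limma, unadjusted p = 0.0575 and 0.079). Mtf1, the zinc sensor that binds metal response elements, differed by 0.23 ± 0.14 (unadjusted p = 0.124). The list of zinc regulation and chaperones held Mt1, Mt2, Mtf1, the chaperone gene Cbwd1, Phf1 and Phf20. It was put together for this work, and a role of Phf1 and Phf20 in zinc handling was not tested. Of its genes 0 of 6 tested passed at an unadjusted p under 0.05, and 1, Mt2, did without 4-HPAA replicate 3.

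**Figure D4:**
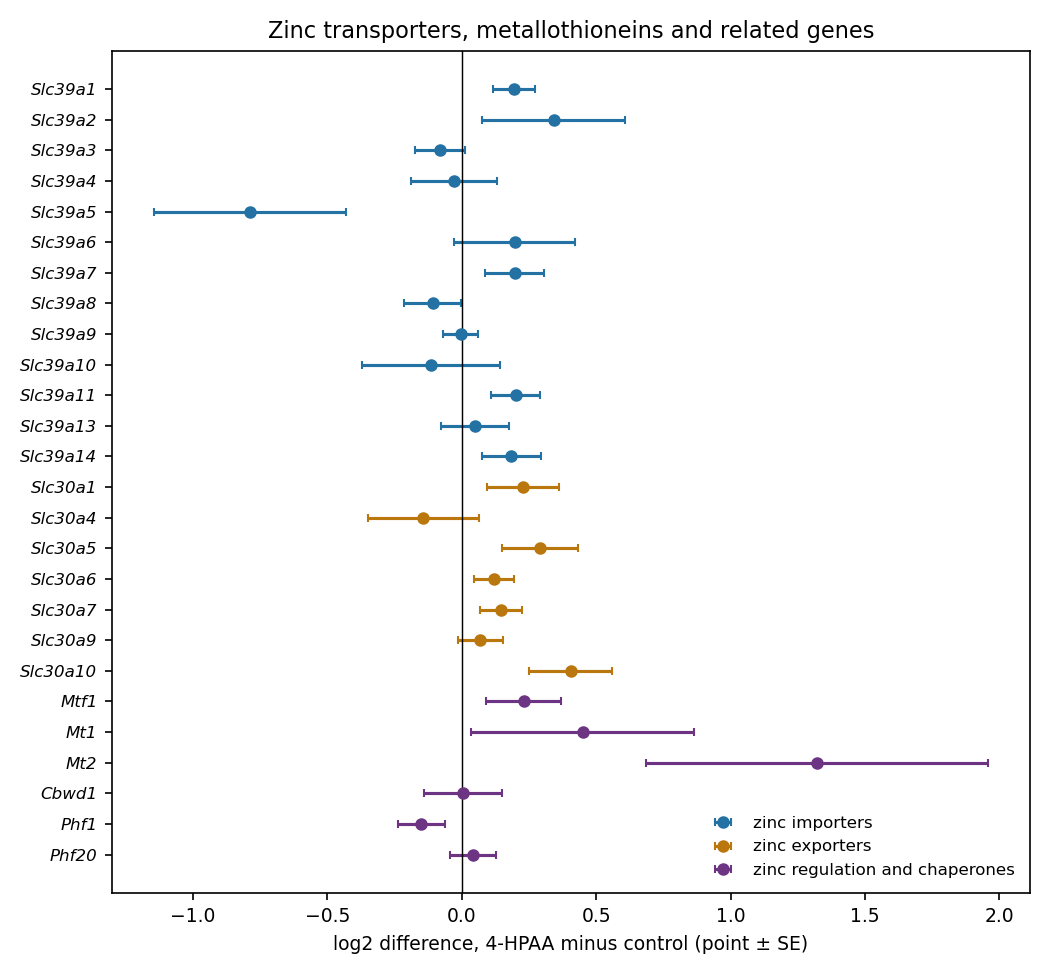
Log2 difference (4-HPAA minus control, point ± SE, horizontal axis) of the tested zinc importers (blue), exporters (orange) and genes of zinc regulation and chaperones (purple), 6 against 6 mice. Most points lie within 0.5 of 0, with Mt2 at 1.32 and Slc39a5 at −0.79 the farthest.

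Of 13 copper genes tested, 1 was higher and 1 lower at an unadjusted p under 0.05, with a median of −0.03, where 7.26% of all genes were higher and 7.56% lower. Steap4, a metalloreductase, averaged 3303 in controls and 4520 with 4-HPAA, a log2 difference of 0.42 ± 0.15 (SE), and Atp7b, the copper pump of hepatocytes, averaged 1197.5 and 985, a difference of −0.28 ± 0.08. Leaving out 4-HPAA replicate 3, the counts were 2 higher, with Cp, the plasma copper protein ceruloplasmin, and 2 lower, with the copper chaperone Atox1. In that fit 10.6% of all genes were higher and 9.06% lower at that level. Of 11 genes listed for manganese and other divalent metals, 3 were higher with all libraries, against 7.26% of all genes, and none lower. They were Slc30a10, the iron and manganese importer Slc11a2 (0.26 ± 0.08) and Atp13a1 (0.21 ± 0.08), and the list median was −0.01. This list was put together for this work, and a role of Atp13a1 in metal handling was not tested. Atp2c1 and Tmem165, which supply manganese to the Golgi, were at −0.02 ± 0.11 and −0.08 ± 0.15. Of 5 genes tested that were listed for this work as zinc-binding plasma proteins, Alb was lower (−0.38 ± 0.10) at an unadjusted p under 0.05 (limma, all libraries). Higher at that level were Hrg (0.27 ± 0.10), Ahsg (0.27 ± 0.11) and Mug1 (0.44 ± 0.17). Zinc binding by Mug1 was not tested.

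Lists of genes under the signals that also act on metallothioneins were set beside them. Of 18 genes of the interleukin 6 and STAT3 response, 15 had positive and 3 negative log2 differences, with a median of 0.43. At an unadjusted p under 0.05 (limma), 12 were higher and none lower. Over all genes tested the shares were 7.26% higher and 7.56% lower, which also stand as background for the next 2 lists. In the interleukin 6 list Orm1 (1.05 ± 0.26), Saa1 (2.78 ± 0.78) and Hpx (0.58 ± 0.17) had the smallest p. Saa1 counts ran from 1270 to 2690 in controls and from 2196 to 63934 with 4-HPAA, so the groups overlapped. The 3 negative differences were those of Il6ra (−0.02 ± 0.22), Hamp (−0.37 ± 0.27) and Cebpd (−0.32 ± 0.30). Of 14 genes listed for this work as glucocorticoid-induced, only Lcn2 had an unadjusted p under 0.05 (2.40 ± 0.70, limma). Lcn2 is also in the interleukin 6 list. The median of the 14 was −0.02. Dusp1 (0.42 ± 0.25) and Cdkn1a (−0.47 ± 0.31) came next. Tsc22d3 and Fkbp5, common readouts of the glucocorticoid receptor, were at 0.12 ± 0.33 and −0.28 ± 0.27. The list also holds the gene of that receptor, Nr3c1 (−0.05 ± 0.14), so its median is not one of induced targets alone. Of 11 genes of oxidative stress defence, 2 were higher (Osgin1 at 0.87 ± 0.21 and Txnrd1 at 0.22 ± 0.07) and 1 lower (Nqo1 at −0.65 ± 0.24), with a median of 0.01. These lists stand beside the metallothioneins as values, and a link between them was not tested.

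The genes most like Mt1 from mouse to mouse, within groups, were sought among 9586 genes with a mean count of at least 100. The 5 highest Pearson r over 12 mice belonged to Stradb (r = 0.84), Znrd1as (0.80), Parp6 (0.79), Mfsd1 (0.79) and Ugt1a9 (0.79), all below the 0.96 of Mt2. Of these, Ugt1a9 differed between the groups at an unadjusted p under 0.05, by −0.72 ± 0.30 (SE), in the direction opposite to Mt1. For Slc39a14 they were Ubxn2b (0.91), Med21 (0.90), Zfp84 (0.90), Igf1 (0.88) and Rpf1 (0.86). Both sets were chosen for these values, which are therefore given without a test.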

How the data were processed

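Liver RNA of 12 mice was extracted with an RNeasy kit. Strand-preserving TruSeq mRNA libraries were run on a NovaSeq, per the labels' protocols. Per the submitters' processing notes build GRCm38 was used with STAR and HTSeq, DESeq2 1.28.1 and edgeR, FastQC 0.11.9 and cutadapt. No source used here gives their roles or the annotation. The deposited values are treated as a score: they appear to be counts that the authors multiplied by a library factor and rounded, judging by low whole numbers that are missing or doubled in a library. Depth was the total divided by the factor so inferred (0.849 to 1.13), which was poorly determined in 3 libraries whose factor is near 1. The planned limma test was kept, and tests for raw counts were not used. IDs were named through GENCODE M21 (13203 of 13267), each gene having 1 transcript ID.

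Limma 3.58.1 (R 4.3.3, trend and robust) was fitted to log2(value + 1) of genes that reached 10 in 6 or more libraries, with Benjamini-Hochberg adjustment over all of them and a threshold of 0.05. This scale understates changes of low genes. Correlations used 100000 resamples within groups. Exact permutation, Python 3.11.15 and matplotlib 3.10.9 served the rest. Fits were tested on simulated data. Named genes were the 5 members, metal genes at an unadjusted p under 0.05 or up to 3 of smallest p per list, and the 5 genes most like Mt1 and Slc39a14. Slc39a7, Tsc22d3, Fkbp5, Atp2c1, Tmem165, Cp, Atox1, Il6ra, Hamp, Cebpd and Nr3c1 were added after their values were seen. The members and lists were chosen with earlier results of these data known, and the promoter motifs after the values were seen. Promoters came from RefSeq (GRCm38.p6), which held 4 of the 5 members. Alternatives were other pseudocounts, filters, scalings, limma settings, a replicate block and each library left out.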

Additional observations from a re-analysis of the deposited data

Results flagged for a closer look

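In 4-HPAA replicate 2 the Mt2 count of 1659 lay far from the next mouse of its group (735), a gap of 0.644 of the group's range where 0.625 is the 95% critical value of Dixon's test for 6 samples. Mt1 in the same mouse, at 2022, was the highest of its group without standing apart to that degree. Of 12 groups examined this way, 1 passed. Chance gives about 1 in 20 for each group, so 1 pass among 12 is not unusual. The groups of Mt1, Mt2 and their ratio share values and are not independent. The gap was taken on counts and not on the log2 scale of the fits.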

How the results depend on the processing

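Each member's difference stayed positive with any 1 library left out and under the other pseudocounts, scalings and array weights. Other filters, other limma settings, the replicate block and exact permutation leave the size of the difference as it is by construction and test only the call. None of the 23 alternatives brought a member to an adjusted p under 0.05. The smallest adjusted p values came with array weights (limma), 0.0816 for Slc30a1, 0.0842 for Slc30a10 and 0.0982 for Slc39a14, which weight 4-HPAA replicate 3 at 0.188. Per kb of the listed transcript the control level of Slc39a14 moved to 1200. The number of genes called over the whole table was 0 with all libraries, 139 with array weights, 11 with a replicate block, and from 0 to 193 with 1 library left out (5 without control replicate 1, 193 without 4-HPAA replicate 4). The labels give both groups the numbers 1 to 6 and do not say that they pair mice. Deviations of same-numbered mice correlated from −0.18 to 0.28, over 0.1 in 3 of 6 pairs. Of 12 samples, each set against the 6 of the other group, 5 correlated best with their own number. With the replicate block, as an exact sign-flip test of the 6 pairs, the Mt1 to Mt2 ratio no longer passed (p = 0.0938, against 0.013 without the block). Its difference of −0.87 cannot move under this block. The correlation of Slc30a1 and Slc30a10 turned from −0.03 to 0.25 when group means were not removed, and neither passed. Counts at an unadjusted p under 0.05 (limma) without 4-HPAA replicate 3 were added after the data were seen. They were 4 zinc exporters and 1 gene of zinc regulation, all higher, and 4 copper genes, 2 higher and 2 lower. In that fit 10.6% of all genes were higher and 9.06% lower at that level. With 6 mice a group the 95% interval for Mt1 runs from a 0.73-fold to a 2.55-fold level, and differences of any size inside it are not excluded. The causes were not tested.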
